A study of Mus musculus with 12 samples.

Results

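The T cell receptor signals through the CD3 chains and a short relay of kinases and adaptors, and this account describes 5-hydroxymethylcytosine (5hmC) and 5-methylcytosine (5mC) over the 9 genes that encode them in naive and differentiated mouse helper T cells. The genes were chosen by symbol and role in the receptor, and no signal value enters the rule: Cd3g, Cd3d, Cd3e and Cd247 (the signalling chains), Lck, Zap70 and Txk (the kinases), and Lat and Lcp2 (the adaptors). All 9 were found, each on a single row, among 37544 gene areas, and all 9 passed the filter on low signal. The study precipitated sonicated, denatured genomic DNA with antibodies and sequenced it. The 5hmC antibody and the 5mC antibody were each used on Th1, Th2, iTreg, Th17 and naive T cells, and Th17 cells also gave a control IgG library and an input DNA library, so that each of 12 groups held 1 library. The series describes CD2(Cre)Tet2(f/f) mice, in which a Cre driven by CD2 deletes the 5mC-oxidising enzyme Tet2 in lymphoid cells, and wild-type littermates on a mixed background. Which of these mice gave the cells, their age, the culture agents and times, and whether animals were pooled are given by none of the sources used here.

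In the receptor complex, CD3 epsilon pairs with CD3 gamma and with CD3 delta, and the zeta chain (the product of Cd247) pairs with itself. The tails of these chains carry tyrosine motifs (ITAMs) that the Src family kinase Lck phosphorylates and that the kinase ZAP-70 then binds. ZAP-70 in turn phosphorylates the membrane adaptor LAT and the cytosolic adaptor SLP-76 (the product of Lcp2), on which the Tec family kinases, Txk among them, act on phospholipase C. 5hmC is made from 5mC by Tet enzymes and is known in many cell types to lie over the bodies of transcribed genes.

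The mark sits mainly on cytosines of CpG dinucleotides, so the start regions of 5 of the genes are shown with every CpG in capitals. They are the 3 clustered CD3 genes, the gene with the largest 5hmC difference (Lat) and the gene whose start region holds no CpG (Lcp2). Each runs 5′ to 3′ on the gene's own strand from 250 bases before to 50 after the RefSeq start, on GRCm38.p6. The gene areas of the deposited table are on build mm9, and their starts were not matched to these runs. Where an area begins at the start shown, its signal bears on the last 50 bases of the run and not on the bases before it.
Cd3g, chr9:44980382-44980681, minus strand: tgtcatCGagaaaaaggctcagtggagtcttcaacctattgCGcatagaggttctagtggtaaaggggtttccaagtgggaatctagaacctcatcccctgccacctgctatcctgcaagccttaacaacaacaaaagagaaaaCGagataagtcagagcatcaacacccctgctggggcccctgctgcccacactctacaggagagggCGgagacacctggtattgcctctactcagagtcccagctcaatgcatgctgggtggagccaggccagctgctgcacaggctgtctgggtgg
Cd3d, chr9:44981536-44981835, plus strand: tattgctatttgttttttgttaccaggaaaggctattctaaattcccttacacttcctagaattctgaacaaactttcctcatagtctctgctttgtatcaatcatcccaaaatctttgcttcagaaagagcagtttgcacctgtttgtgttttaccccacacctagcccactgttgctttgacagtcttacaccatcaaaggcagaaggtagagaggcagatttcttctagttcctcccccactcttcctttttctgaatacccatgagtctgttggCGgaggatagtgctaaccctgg
Cd3e, chr9:45009562-45009861, minus strand: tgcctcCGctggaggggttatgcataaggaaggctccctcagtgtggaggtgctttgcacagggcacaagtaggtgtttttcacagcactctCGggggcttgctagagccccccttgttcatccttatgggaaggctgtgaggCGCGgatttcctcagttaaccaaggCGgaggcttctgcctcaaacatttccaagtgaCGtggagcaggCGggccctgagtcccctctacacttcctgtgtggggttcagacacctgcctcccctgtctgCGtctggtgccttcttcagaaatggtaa
Lat, chr7:126369519-126369818, minus strand: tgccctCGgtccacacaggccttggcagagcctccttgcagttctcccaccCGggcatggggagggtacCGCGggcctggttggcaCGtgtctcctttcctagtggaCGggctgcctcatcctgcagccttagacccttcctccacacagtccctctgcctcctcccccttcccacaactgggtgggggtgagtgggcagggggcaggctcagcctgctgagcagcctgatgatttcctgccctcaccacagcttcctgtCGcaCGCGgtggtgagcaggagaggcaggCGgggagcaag
Lcp2, chr11:34046678-34046977, plus strand: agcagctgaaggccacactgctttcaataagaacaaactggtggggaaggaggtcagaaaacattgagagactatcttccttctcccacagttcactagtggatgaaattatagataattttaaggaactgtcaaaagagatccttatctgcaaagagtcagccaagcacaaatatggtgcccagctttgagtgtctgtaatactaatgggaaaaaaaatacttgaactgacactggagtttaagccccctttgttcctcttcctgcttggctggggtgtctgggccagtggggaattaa
Cd3g and Cd3d are transcribed away from each other, and their starts lie 1355 bases apart. The CpG count was 4 at Cd3g, 1 at Cd3d, 8 at Cd3e, 10 at Lat and 0 at Lcp2. RefSeq gave 13 start regions for the 9 genes, with a median of 5 CpGs and none above 10, while 41.4% of all 32851 mouse start regions held more than 10 and their median was 7. All member start regions were therefore at the CpG-poor or middle part of that range. Of 4 motifs searched on both strands, the E box CAGGTG was in 8 of the 13 member regions (20.2% of all regions), the ETS motif AGGAAGT in 6 (9.35%), the TCF/LEF motif CTTTGA in 5 (16.0%) and the RUNX motif TGTGGT in 4 (16.8%). Some genes have more than 1 of the 13 regions, and by gene the counts were 6, 5, 5 and 4 of 9 in the same order. Each motif was counted on its own, so a base can belong to more than one of them, and these are matches of letters only.

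The values are deposited signal per gene area. In the input library their median was 1.3 for areas up to 1 kb and 1.6 to 1.8 in the 3 longer classes, so signals are read as per length. Naive 5hmC itself differed by length, with medians of 5.4 up to 1 kb, 11.2 from 1 to 10 kb, 17.2 from 10 to 100 kb and 13.3 above, and this bears on levels compared between genes. Median 5hmC signal over all gene areas was 10.9, 11, 11 and 9.9 in Th1, Th2 and the libraries labelled iTreg and Th17, against 12 in naive cells. The 5mC medians were 0.6 to 0.7, that of IgG 0.8 and that of input 1.7. The read depth is unknown, so no counting interval can be given. Because no group has a second library, cell types were not tested against each other, and their differences have no replicate check. A difference was counted when it reached 2-fold (a log2 difference of 1 after adding 0.2 to each value).

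The helper labels were checked against subset genes. Ifng and Tbx21 had most 5hmC in the Th1 library (22.6 and 54.8), and Il4 had most in the Th2 library (82.6). Il17a, however, had 31.3 in the library labelled iTreg and 8.8 in the library labelled Th17, Il17f had 32.8 and 5.3, and Foxp3 had 25.3 and 30.9. Gata3 had 194.9 in the library labelled iTreg against 75.2 in Th2. The 5hmC libraries of these names are therefore called the libraries labelled iTreg and Th17, and results that rest on them are also given without them.

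The 4 signalling chains had less 5hmC in every differentiated library than in naive cells, which held 27.0% to 70.2% of the naive value. Cd3e (chromosome 9, 44806825 to 44817672, mm9, minus strand) encodes the chain shared by both CD3 pairs. Its 5hmC signal was 25.8 in Th1, 27.4 in Th2, 35.9 in the library labelled iTreg and 27.0 in that labelled Th17, against 95.6 in naive cells. The 4 differentiated values lay close together, 29.0 ± 4.63 (mean and SD over the 4 cell types), and the naive value stood far above them. Cd3g (44777654 to 44788513) had 14.2, 21.8, 18.4 and 15.6 in the same order, against 50.3 in naive cells. On the log2 scale the mean of the 4 libraries lay 1.73 below naive at Cd3e (log2 difference -1.73) and 1.53 below at Cd3g (-1.53). Cd3d (44789868 to 44795134), which lies between them, differed least. Its values were 17.1, 26.7, 28.1 and 23.6, against 40.0 in naive cells, a log2 difference of -0.76. The 3 gene areas fill most of a 40019 bp stretch, with gaps of 1354 bp (Cd3g to Cd3d) and 11690 bp (Cd3d to Cd3e), so that neighbouring members of 1 cluster differed in size of change. In bulk DNA, a lower mark in every cell and a smaller share of marked cells cannot be told apart.

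Cd247 (chromosome 1, 167718819 to 167804116), the longest member with 85298 bp, encodes the zeta chain. It kept 5hmC values of 56.4, 56.5, 65.7 and 41.1 in Th1, Th2 and the libraries labelled iTreg and Th17, against 105.0 in naive cells. These values were above those of the CD3 genes in every library, and the log2 difference of the 4 from naive was -0.95. Only the library labelled Th17 passed 2-fold at this gene, with 39.1% of the naive value.

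Among the kinases Lck had the highest naive 5hmC and, for the mean of the 4, the largest difference. In Th2 Zap70 had the higher signal. Lck (chromosome 4, 129225587 to 129250884) had 68.0 in Th1, 76.0 in Th2, 81.2 in the library labelled iTreg and 50 in that labelled Th17, against 223.1 in naive cells, the highest value of any member in any library. The mean log2 difference was -1.72, and the lowest library held 22.4% of the naive value. Zap70 (chromosome 1, 36818705 to 36839660) had 57.7, 77.4, 58.7 and 42.2, against 108.2 in naive cells. Its log2 difference from naive was -0.48 in Th2, the smallest of any member in any library, and -1.35 in the library labelled Th17. Txk (chromosome 5, 73087216 to 73144011), also called Rlk, had 29.5, 22.3, 29.9 and 22.7, against 66.0 in naive cells. It passed 2-fold in all 4 comparisons, with log2 differences of -1.16, -1.56, -1.14 and -1.53.

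The adaptors differed from each other. Lat (chromosome 7, 133507340 to 133513047), one of the shortest members with 5708 bp, had 49.9 in Th1, 41.1 in Th2, 64.0 in the library labelled iTreg and 30.5 in that labelled Th17, against 205.7 in naive cells. The differentiated libraries held 24.3%, 20%, 31.1% and 14.8% of the naive value, and the mean log2 difference of -2.20 was the largest of the 9. Its IgG signal was 4.5, the highest of the 9 and at the 97.4 percentile of the IgG library. In the library labelled Th17 its 5hmC lay above IgG in deposited units (log2 difference 2.71). After each library was centred on its median gene area this difference was -0.63. The excess of Lat over IgG was thus smaller than that between the library medians. Lcp2 (chromosome 11, 33947200 to 33992279) had 38.6, 39.4, 28.5 and 20.3, against 56.6 in naive cells. At Lcp2 the libraries labelled iTreg and Th17 lay below Th1 and Th2, whereas at Lat the library labelled iTreg was the highest of the 4.

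**Figure D1:**
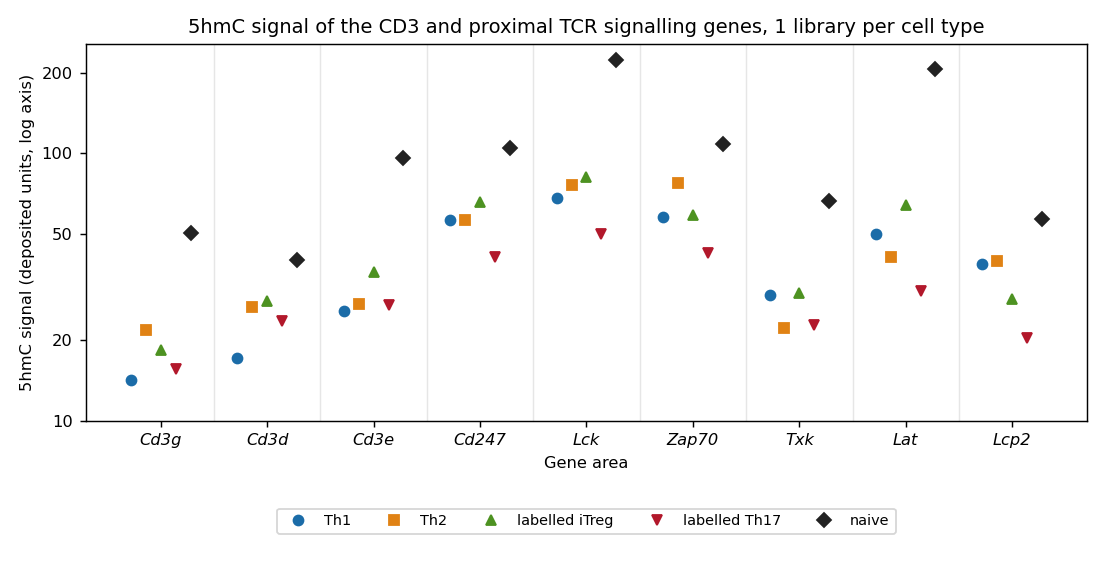
5hmC signal (deposited units, log axis) of the 9 gene areas, with 1 point per library: Th1, Th2, the libraries labelled iTreg and Th17, and naive from left to right within each gene. The naive point is the highest at every gene, with 223.1 at Lck and 205.7 at Lat, and the points of the other 4 libraries lie closer to each other than to it at most genes.

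Read against all gene areas, the members' differences were common ones for areas with a high naive signal. The naive library was the highest of the 5 at 9 of 9 members, while this held for 44.9% of the 28159 gene areas that passed the filter. At least 2-fold lower than naive were 6 of 9 members in Th1 (16.1% of gene areas), 5 in Th2 (14.8%), 5 in the library labelled iTreg (14.7%) and 8 in that labelled Th17 (25.6%). Naive cells were the lowest of the 5 at 0 of 9 (18.4%). No member was 2-fold higher in any of the 4, against 4.34%, 4.85%, 4.52% and 4.63% of gene areas. For the mean of the 4 libraries 5 of 9 members passed (16% of gene areas) and 0 of 9 were 2-fold higher (2.94%). Leaving out the libraries labelled iTreg and Th17 also gave a count of 5. The library labelled Th17 was the lowest of all at 5 of 9 members (36.3% of gene areas). The members' median log2 difference was -1.35, beside -0.27 over all gene areas. These 4 comparisons share the naive library, and a gene area with a high naive value is more prone to lie below it elsewhere. Among the 3823 gene areas whose naive 5hmC was at least 40.0, the value of the lowest member, 55.9% were at least 2-fold lower in the mean of the 4, with a median of -1.08. By library this share was 51.4% in Th1, 44.4% in Th2, 46.4% in that labelled iTreg and 67.4% in that labelled Th17. The members' 5 of 9 is thus near the share among gene areas with naive 5hmC of at least 40.0. That set is not matched to the members, whose median naive value was 95.6.

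**Figure D2:**
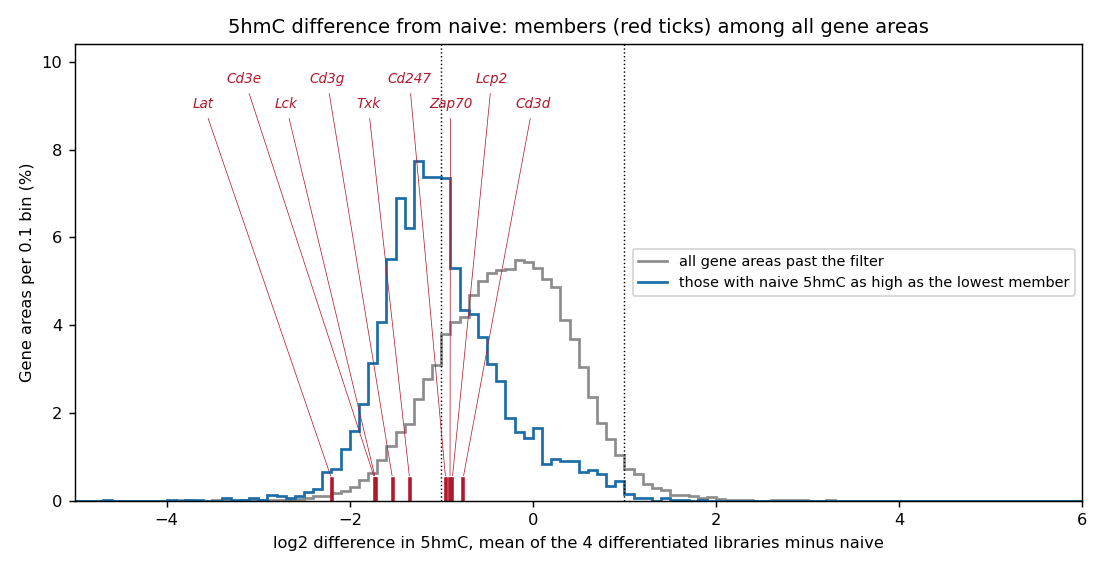
Distribution of the log2 5hmC difference (mean of the 4 differentiated libraries minus naive) over the 28159 gene areas past the filter (grey) and the 3823 with naive 5hmC of at least 40.0 (blue), as percent of areas per bin, with the 9 members as red ticks and dotted lines at 2-fold. All 9 ticks lie below 0, from -2.20 at Lat to -0.76 at Cd3d, within the span of the blue curve.

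Ranks within each library do not depend on scaling, and they showed how much of the high position was kept. Lck stood at the 99.2, 99.2, 99.4 and 98.2 percentiles of all gene areas in Th1, Th2 and the libraries labelled iTreg and Th17, against 99.9 in naive cells. Cd247 and Zap70 likewise stayed at or above the 97.1 percentile in all 5. Cd3g moved more, with percentiles of 63.6, 81.2, 75.4 and 73.6 against 93.8 in naive cells. By rank, naive remained the highest library at 7 members. The exceptions were Zap70, at 99.2 in both Th2 and naive cells, and Lcp2, at 96.0 in Th1 against 95.3 in naive cells. Median-ratio scaling, which shifts the log2 differences by 0.15 to 0.30, left all 9 members highest in naive cells and 5 at least 2-fold lower in the mean.

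Neighbouring genes shared the lower 5hmC at some loci and not at others. The nearest 2 named gene areas on each side of the members gave 28 areas that are not members, of which 10 were at least 2-fold lower than naive (16% of all gene areas) and none 2-fold higher. Their median log2 difference was -0.88, beside -0.27 over all gene areas. In 24 of 30 member and neighbour pairs the neighbour differed less than the member, some neighbours being counted beside 2 members. How often areas elsewhere would do so was not computed, and the median gene area also differed less than any member. At the CD3 cluster the sides differed. Mpzl2, 32754 bp beyond Cd3e, had 30.7, 29.5, 32 and 23.4 in Th1, Th2 and the libraries labelled iTreg and Th17, against 20.4 in naive cells, whereas Ube4a, 3972 bp from Cd3g on the other side, had 10.9, 16.4, 13.7 and 8.8 against 29.6. Spns1, whose area lies 528 bp from Lat, had 31.1, 28.3, 46.4 and 15.3 against 108.6 (log2 difference -1.94), close to Lat itself. The next area beyond it, Nfatc2ip, had -0.57. Beside Lck, the deacetylase gene Hdac1 had 49.7, 44.4, 44.4 and 33.6 against 109.0 (-1.35). Creg1, 13385 bp from Cd247, went the other way, with 133.3, 142.5, 131.8 and 146.9 against 98.6. Around Lcp2, which is the most isolated member, the nearest areas Kcnmb1 and Foxi1 had log2 differences of -0.01 and 0.20. Beside Txk lies another kinase of its family, Tec, with 27.1, 32.7, 32.7 and 33.4 against 56.3 (-0.84).

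**Figure D3:**
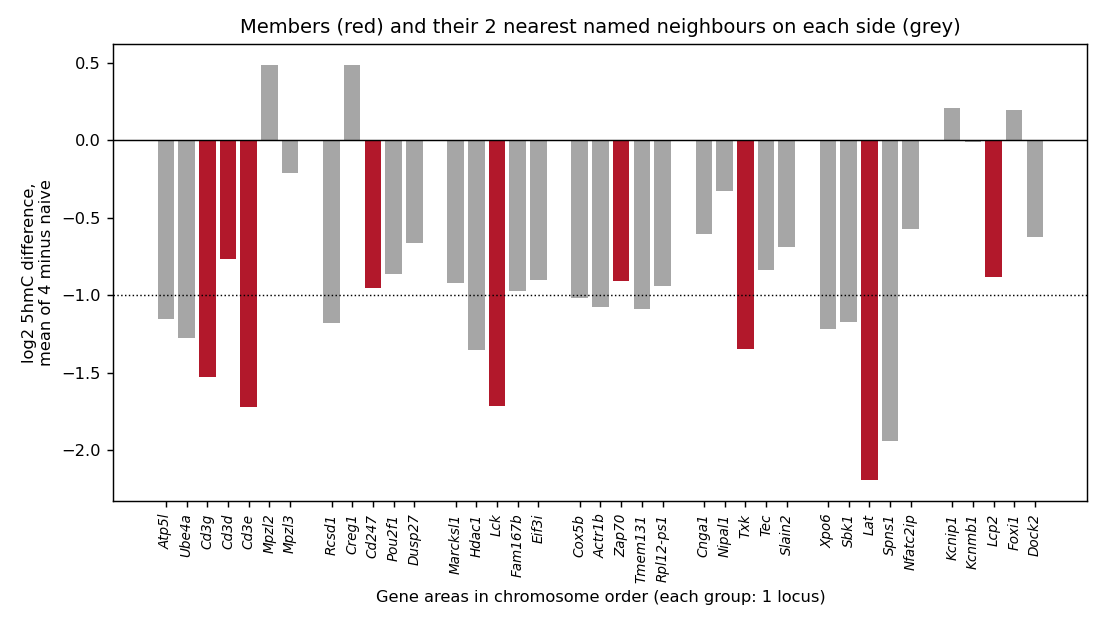
Log2 5hmC difference (mean of the 4 differentiated libraries minus naive) of the members (red bars) and of the 2 nearest named gene areas on each side (grey bars), in chromosome order by locus, with a dotted line at 2-fold lower. The bars at Lat (-2.20) and Spns1 (-1.94) stand side by side, while Mpzl2 (0.49) and Creg1 (0.49) point up next to members that point down.

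Small gene areas inside 2 members gave values for parts of them, and were looked at after the members' values were seen. Gm18828, an area of 866 bp that begins 3157 bp into Zap70, had 74.9, 68.1, 64.5 and 26.6 in Th1, Th2 and the libraries labelled iTreg and Th17, against 185.9 in naive cells. Its naive value exceeded the 108.2 of Zap70 as a whole, and its log2 difference of -1.77 exceeded the -0.91 of Zap70 in size. LOC100503933, 3241 bp long and 76459 bp into Cd247, had 13.9, 9.0, 10.4 and 3.6 against 19.9, far under the Cd247 values. In deposited units these inner areas thus differed from the whole gene. With 1 such area per gene and unknown read handling, the course of the signal along either gene was not tested.

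Other genes of the T cell receptor pathway had list medians below naive in 5hmC, with log2 differences from -1.33 to -0.73. The lists are from textbook knowledge, and counts are for the mean of the 4 libraries, to be read beside the 16% of gene areas that were at least 2-fold lower. Of the coreceptors and surface partners 3 of 11 passed, and their median log2 difference was -0.91. Cd4 had 50.9, 46.3, 57.3 and 36.9 in Th1, Th2 and the libraries labelled iTreg and Th17, against 126.2 in naive cells, and Cd8a had 26.3, 18.3, 26.3 and 23.3 against 78.0. The costimulatory receptor Icos (-0.28) and the inhibitory receptor Ctla4 (0.18) were at the other end. Of 16 measured adaptors and effectors 8 passed (median -0.98), but 5 without the libraries labelled iTreg and Th17 and 3 after median-ratio scaling. Grap2, whose product Gads links LAT to SLP-76, was lowest with 48.2, 54.1, 55.8 and 30.1 against 143.5 (-1.64), followed by Skap1 (-1.35), while Dlg1 (-0.75) and Themis (-0.48) differed least. Brakes on the pathway had the largest share of these lists: 11 of 16 passed, and the median was -1.33. Csk, the kinase that holds Lck inactive, had 41.3, 46.0, 43.8 and 20.5 against 132.5 (-1.87), close to Lck. Dgka, which removes the messenger diacylglycerol, had -1.82, and Ptpn22 (-0.31) and Dok1 (0.27) were highest. Of the Ras, PKC and NF-kappa-B genes 4 of 14 passed (median -0.89), from Rasgrp1 (-1.48) and Prkcq (-1.09) to Chuk (-0.30) and Malt1 (-0.07, with an IgG signal of 43.2). Of the calcium genes 4 of 10 passed (median -0.73), from the channel gene Orai1 (-1.52) and Nfatc3 (-1.45) to Nfatc2 (-0.02) and Itpr1 (0.02). After median-ratio scaling the last 2 counts were 1 and 2. Housekeeping genes gave 5 of 13 with a median of -0.90, from Ywhaz (-1.68) and Ppia (-1.61) to Gapdh (0.30) and Pgk1 (0.41), so lower values were not limited to this pathway.

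Relatives of the members that serve other blood cells passed in 3 of 11 cases, with a median of -0.64. The Src family genes Lyn and Blk had 15.1 and 15.9 in Th1, against 13.4 and 13.2 in naive cells, where Lck had 223.1. Over the mean of the 4, Lyn had a log2 difference of 0.39, Blk 0.18 and Fgr -1.05. The Tec family genes Btk and Bmx, relatives of Txk, had -0.64 and 0.14. The adaptor genes Lat2 and Blnk, relatives of Lat and Lcp2, had -0.75 and -0.22, and Fcer1g, whose product resembles the zeta chain, had -0.79. The B cell receptor chains went with the CD3 genes: Cd79a had 49.3, 42.5, 43.2 and 28.3 in Th1, Th2 and the libraries labelled iTreg and Th17, against 159.2 in naive cells (-1.99), and Cd79b had 29.9, 26.0, 26.4 and 21.1 against 65.5 (-1.35). Both are B cell markers. Over all 7 B cell markers the summed 5hmC was 184.3 to 207.2 in the 4 differentiated libraries, against 336.2 in naive cells, and 2 of 7 were at least 2-fold lower. Most of the naive sum came from Cd79a and Cd79b, so it does not describe the list as a whole. In the mean of the 4 libraries, 4 of the 7 markers lay below naive and 3 above. The defining B cell gene Ms4a1 had -0.31, Pax5 0.28, Ebf1 0.32 and Cd22 0.74. The 6 measured myeloid markers summed to 90.5 to 107.8, against 139.3 in naive cells, and 1 of them, Lyz2, was 2-fold lower (-1.10). Itgam had -0.93, Mpo -0.15 and Csf1r 0.22. None of these markers was at 0 in 5hmC, and the part of other cell types in the members' values was not tested.

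The gene areas with the most similar 5hmC profile were sought among 15292 areas of at least 3000 bp. Likeness was the root mean square distance, over the 4 log2 differences from naive, to the members' median profile of -1.22, -1.20, -1.14 and -1.53 in Th1, Th2 and the libraries labelled iTreg and Th17. Among the 6 nearest were Tecr (distance 0.0502), Srp14 (0.0532), Slc16a5 (0.0542), Ssh3 (0.0669) and Fam113b (0.0688). Slc16a5, for example, had 37.1, 41.3, 41.9 and 30.9, against 92.1 in naive cells. The members' own distances from their median ran from 0.182 at Txk to 0.962 at Lat, and the named areas, picked as the nearest, are no measure for these. With only 4 points that share the naive library, such likeness is a description.

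The 5mC signal of the members was low, between 0.3 and 2.0 in every library. Lat had 2.0 in Th1, 1.4 in Th2, 1.1 in iTreg and 1.3 in Th17 cells, against 1.0 in naive cells, and Cd3e had 0.9, 0.8, 0.6 and 0.6 against 0.5. Lck had 1.5, 1.2, 1.4 and 1.1 against 1.0, and Cd247 had 1.0, 0.7, 0.7 and 0.7 against 0.6. At these 4 genes naive cells had the lowest value of the 5, while 7.27% of gene areas did. The gap between naive cells and the nearest other library was 0.1 at each of the 4, which is the rounding step of the table. After median-ratio scaling the naive value was lowest at 5 members and in 20.2% of gene areas. Zap70 had 1.9, 1.8, 1.4 and 1.7 against 1.9, the highest naive 5mC among the members. Cd3g had 0.4, 0.6, 0.5 and 0.3 against 0.4, Cd3d 0.5, 0.3, 0.3 and 0.3 against 0.4, and Lcp2 0.8, 0.4, 0.3 and 0.4 against 0.6. Txk was nearly level, with 1.2, 1.2, 1.0 and 1.0 against 1.1. Naive cells had the highest 5mC at 0 of 9 members (23.1% of gene areas), and Th17 cells the lowest at 1 of 9 (21.5%). After adding 0.2 to each value, which is large beside these signals, no member was 2-fold lower in Th1 (2.23% of gene areas), Th2 (3.12%), iTreg (4.63%) or Th17 cells (3.99%), and none was 2-fold higher (2.22%, 1.56%, 1.33% and 1.5%). In deposited units Lat in Th1 was at 200% of naive and Lcp2 in iTreg at 50%. The mean of the 4, with 0.2 added, gave 0 members lower (2.07%) and 0 higher (0.799%). The median log2 difference of the members in the mean of the 4 was 0.09, beside -0.11 over all gene areas.

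**Figure D4:**
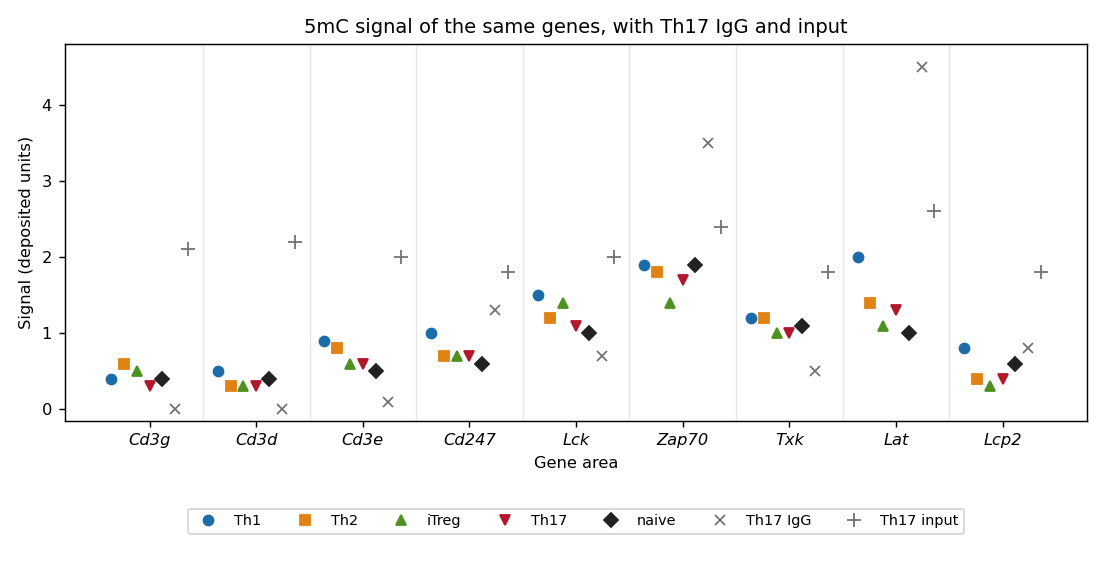
5mC signal (deposited units) of the 9 gene areas in Th1, Th2, iTreg, Th17 and naive cells, with the IgG (cross) and input (plus) libraries of Th17 cells, 1 point per library. All 5mC points lie between 0.3 and 2.0, below the input point of their gene. The IgG points of Lat (4.5), Zap70 (3.5) and Cd247 (1.3) lie above their 5mC points, and that of Lcp2 (0.8) is level with its highest.

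Controls were available for Th17 cells only. The IgG signal of the members was 0 at Cd3g and Cd3d, 0.1 at Cd3e, 0.5 at Txk, 0.7 at Lck, 0.8 at Lcp2, 1.3 at Cd247, 3.5 at Zap70 and 4.5 at Lat. Input ranged from 1.8 to 2.6. The 5hmC signal of the library labelled Th17 was 7.43 times input at Cd3g, the lowest ratio, and 25 times input at Lck, the highest. All 9 members were at least 2-fold above both IgG and input in deposited units, as were 97.4% of gene areas in each comparison, and none was 2-fold below (0.217% of gene areas against IgG and 0.0284% against input). When each library was centred on its median gene area, 7 of 9 remained 2-fold above IgG, and Zap70 (log2 difference 0.18) and Lat (-0.63) did not. The Th17 5mC signal was 0.136 times input at Cd3d and 0.708 times input at Zap70, and 5 of 9 members were at least 2-fold below input (59.7% of gene areas), with none 2-fold above it (0.508%). Against IgG, Th17 5mC was 2-fold higher at 3 members (19.5%) and lower at 1 (28.3%). IgG itself was 2-fold below input at 6 members (44%) and above it at 0 (4.2%). The deposited values therefore do not show 5mC enrichment over input at these genes. This was not particular to them, since median Th17 5mC over all gene areas was 0.6, against 1.7 in input. The scaling between libraries is unknown.

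Relative to the median gene area of each library, 8 of 9 members were called higher in 5hmC than in 5mC. The filter on mean signal was passed through the 5hmC values, since no member had a 5mC signal above 2.0, so gene areas high in 5hmC were favoured and the count is a description. The 10 antibody libraries were each centred on their median gene area. They were fitted with limma with cell type as block, so the spread is that of the 5hmC minus 5mC difference across cell types. With Benjamini-Hochberg adjustment over 28159 gene areas, 12.9% of them were called higher in 5hmC and 5.99% lower. With no filter, 9.61% were called higher and 16.1% lower, and 8 members were again called higher. The pairing of 5hmC with 5mC libraries in iTreg and Th17 cells rests on the labels doubted above. Cd247 had centred 5hmC minus 5mC values of 1.94 in Th1, 2.17 in Th2, 2.39 in iTreg, 1.86 in Th17 and 3.28 in naive cells. Its estimate was the largest, 2.33 ± 0.22 (log2 difference and standard error, adjusted p = 0.000236). Lck followed with 2.18 ± 0.31 (adjusted p = 0.000953), and its values were 1.7, 1.96, 1.86 and 1.61 in Th1, Th2, iTreg and Th17 cells, against 3.78 in naive cells. Lcp2 had 1.95 ± 0.19, Cd3d 1.84 ± 0.21, Cd3e 1.67 ± 0.33, Lat 1.59 ± 0.40, Cd3g 1.36 ± 0.26 and Zap70 1.36 ± 0.19, with adjusted p between 0.000236 and 0.0131 in the same limma fit. Txk missed the 2-fold limit with 0.87 ± 0.24 (adjusted p = 0.0199 in limma). The difference was positive in 5 of 5 cell types at every member, and the naive pair gave the largest value at each. The shares of all gene areas with these patterns were not computed. Naive 5hmC alone was already the highest of the 5 at 9 of 9 members (44.9% of gene areas), so the order of the pairs is no separate result. The estimate of Lck exceeded that of Cd247 with a pseudocount of 1 (2.42 against 2.31). It also did so without iTreg and Th17 cells (2.48 against 2.46).

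Without the naive pair the limma estimates were smaller at all 9 members, and the same 8 members were still called (12.3% of gene areas), from Cd3g with 1.05 (adjusted p = 0.00234) to Cd247 with 2.09 (adjusted p = 0.00016). Without iTreg and Th17 cells Lat was no longer called (1.81, adjusted p = 0.0592 in limma) and 7 members were (12.3% of gene areas). In the fit over all 5 cell types, with 12.9% of gene areas called higher, 10 of 11 coreceptors and surface partners were called higher in 5hmC, as were 10 of 16 adaptors and effectors, 12 of 16 brakes, 7 of 10 calcium genes and 6 of 14 Ras, PKC and NF-kappa-B genes, with 1 of these lower. Of the relatives of other blood cells 1 of 11 was called, Cd79a with 1.68 ± 0.36 (adjusted p = 0.00626 in limma). Lyn had 0.87, Blk 0.05, Lat2 0.08 and Fcer1g -0.22. Of the B cell markers 3 of 7 were called, of the measured myeloid markers 1 of 6, and of housekeeping genes 4 of 13.

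**Figure D5:**
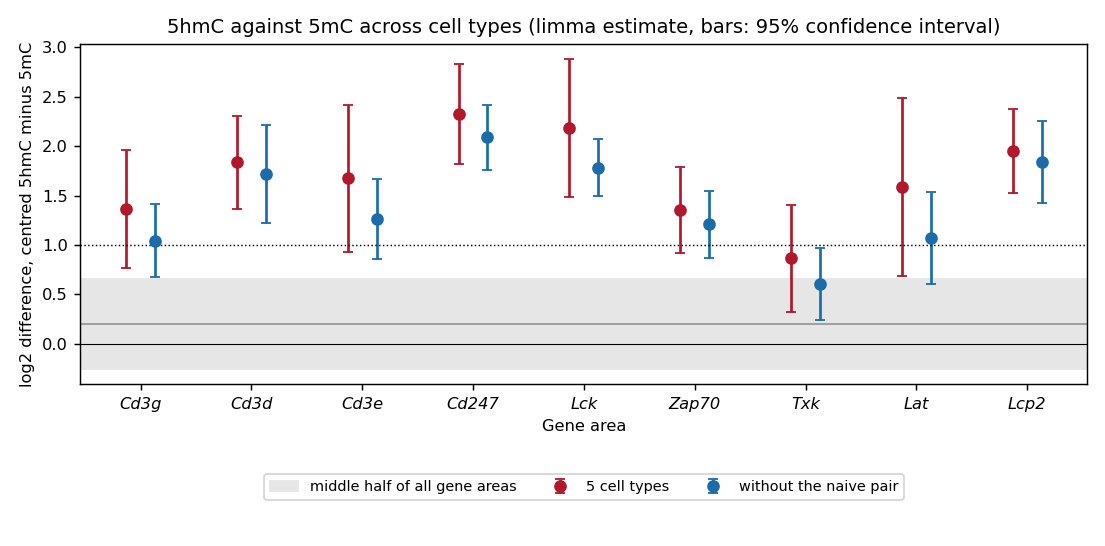
Limma estimates of the centred log2 difference of 5hmC minus 5mC for the 9 members over 5 cell types (red) and without the naive pair (blue), with 95% confidence intervals, over the middle part (lower to upper quartile) of all gene areas (grey band, -0.25 to 0.66). All members but Txk lie above the dotted line at 1 in both fits, and Cd247 is the highest.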

How the data were processed

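DNA immunoprecipitation sequencing of 12 libraries gave 1 deposited table, in which the authors list a signal value with 1 decimal for every gene area and library. CASAVA 1.7.0 and genome build mm9 are named, per the submitters' processing notes. How reads were aligned, counted, filtered for duplicates and scaled is not given in the sources used here, and the depth is unknown. Columns were matched to libraries by the number in their titles, and 0 value columns were left unused. Of 37752 rows, 208 repeated a symbol (the row with the highest mean was kept). In 14138 of 31895 rows matched by gene ID to RefSeq (GRCm38.p6), end minus start plus 1 equalled the RefSeq gene length, so coordinates count from 1. Gene areas with a mean signal of at least 3.31 over the 10 antibody libraries (25th percentile) entered counts. Log2 values used a pseudocount of 0.2, which understates changes of low areas. Limma 3.58.1 (R 4.3.3, empirical Bayes with trend) compared 5hmC with 5mC, with calls at adjusted p under 0.05 and 2-fold, and was tested on simulated data. Python 3.11.15, numpy 2.4.6 and pandas 2.3.3 did the rest. Named genes were the members, the 2 lowest and 2 highest of each list, listed relatives, subset markers, 2 neighbours per side and 6 genes of similar profile. Names of predicted genes, LOC numbers and small RNAs were left out as neighbours. Values of a few genes under this rule are not reported here. Members and lists were chosen with earlier results of these data known. Alternatives were another pseudocount, median-ratio scaling, IgG subtraction, ranks, other filters and left-out libraries.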

Additional observations from a re-analysis of the deposited data

How the results depend on the processing

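Under the other pseudocount, median-ratio scaling, IgG subtraction and left-out libraries, all 9 members stayed below naive in the mean of the 4 5hmC libraries, from -2.37 (the lowest value of Lat) to -0.54 (the highest of Lcp2), and none reversed. The count of members at least 2-fold lower was 5 to 7 when 1 differentiated library was left out, with Zap70 (-1.05) and Lcp2 (-1.002) passing without Th2 and Cd247 (-1.04) without the library labelled iTreg. The background moved more. The share of gene areas at least 2-fold lower was 10.7% in Th1, 16.9% in the library labelled Th17 and 10.1% in the mean of the 4 after median-ratio scaling, where 9.39% in the library labelled Th17 and 5.28% in the mean were higher. Among areas with naive 5hmC as high as the lowest member, a choice made after seeing the data, 51.4%, 44.4%, 46.4% and 67.4% were lower in Th1, Th2 and the libraries labelled iTreg and Th17 and 55.9% in the mean. With no filter 7.36%, 7.48%, 7.35% and 7.28% were higher and 4.9% in the mean, and in areas of at least 3000 bp 1.64%, 2.37%, 1.79%, 2.0% and 1.06%. The number of gene areas called lower in 5hmC than 5mC, 1686, was 846 with a pseudocount of 1 and 6035 with no filter, where more low areas enter. Members called higher were 8 or 9 when 1 cell type was left out, gene areas called higher 3462 to 3698 and lower 1566 to 1790. Txk passed with a pseudocount of 1 (1.08) and without Th2 cells (1.03). Of the lists, under settings chosen after seeing the data, adaptors and effectors at least 2-fold lower numbered 5 without the libraries labelled iTreg and Th17 and 3 after median-ratio scaling, Ras, PKC and NF-kappa-B genes 1 and calcium genes 2 after this scaling, and myeloid markers 2 and 0. The cause of these moves was not tested. No paired analysis was possible because, between cell types, each group holds 1 library. The fit of 5hmC against 5mC has cell type as block, and without it the same number of members, 8, was called, with 3624 gene areas higher and 1673 lower. Unknown depth, rounding and signals below input limit the 5mC values.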
